A study of Mus musculus with 9 samples.

Results

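The vascular connexins are the gap junction genes best known from blood vessel walls: Gja1 (Cx43), Gja4 (Cx37), Gja5 (Cx40) and Gjc1 (Cx45). They were chosen by gene name from the deposited count table, in which they are 4 of 46078 genes, and all 4 passed the filter on low counts. The table holds RNA-seq of ECs sorted as CD45-Ter119-CD31+ cells from the BM of normal B6 mice of wild type genotype, with no treatment, deletion or transgene named in the labels. The cells were split by flow cytometry into a Sca-1+ fraction (4 libraries, whose labels end in 7, 13, 15 and 19) and a Sca-1- fraction (5 libraries, whose labels end in 8, 10, 14, 16 and 22). The study first told arteries, arterioles and sinusoids apart by staining for CD31, alpha-SMA, Sca-1 and endomucin. It then used high and low Sca-1 staining of CD31+ vessels together with their morphology. The labels call the sorted fractions Sca-1+ and Sca-1-, and the comparison asks how the fractions differ in expression. Libraries 15 and 16 share a number in their titles. Libraries 13, 14 and 22 share the tag CD452, and library 10 carries it without the letters CD. The letters wt stand in the titles of libraries 8, 15, 16 and 19, and library 7 carries no tag. There is no word on what the tags mean. The labels do not say which libraries came from separate mice, so p-values measure the spread between these libraries. The labels also carry a running number, lower in all Sca-1+ than in all Sca-1- libraries, and whatever it stands for cannot be told apart from the fraction. Neither the age of the mice nor pooling of animals is given in the sources used here.

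Each library held 21581653 to 25959818 counts, and levels are given as CPM, the usual count unit relative to library size, here scaled by TMM (trimmed mean of M-values). Ly6a, which encodes Sca-1, lay between 874 and 1306 CPM in the Sca-1+ libraries and between 0.24 and 1.49 CPM in the Sca-1- libraries, which matches the sort. In the Sca-1- fraction most endothelial genes were low, while megakaryocyte, platelet and type I collagen genes were high. The name Sca-1- ECs therefore follows the labels, not these markers. Of 25 general endothelial genes, 23 were higher in Sca-1+ ECs and 0 were lower, with Cdh5 (VE-cadherin) at 235 to 297 CPM against 2.44 to 13.1 CPM. Pecam1 and Esam were the 2 that did not pass the test. All 16 megakaryocyte and platelet genes were lower in Sca-1+ ECs, and their summed level was 54.0 to 101 CPM against 29479 to 125454 CPM. Of 14 stromal genes 5 were higher in Sca-1+ ECs and 3 lower, and the lower ones included Col1a1 (type I collagen, 27.4 to 389 CPM against 2028 to 27568 CPM) and Bglap (osteocalcin, 0.681 to 3.91 CPM against 21.5 to 704 CPM). Cxcl12 was higher instead (311 to 1623 CPM against 52.7 to 282 CPM). Of 12 smooth muscle and pericyte genes 9 were higher in Sca-1+ ECs, with a summed level of 688 to 1676 CPM against 20.3 to 97.5 CPM. Of 12 arterial genes 11 were higher in Sca-1+ ECs, but so were 8 of 9 sinusoidal genes, and only Lyve1 of the latter was lower. Lower in Sca-1+ ECs were also 6 of 9 erythroid, 7 of 8 leukocyte and 3 of 4 tested B and plasma cell genes. Of 7 neutrophil genes 1 was lower, and none of these lists held a higher gene. Over all genes tested, 23.3% were higher and 21.4% lower in Sca-1+ ECs. The shares of lower neutrophil genes (14.3%) and lower stromal genes (21.4%) did not exceed the latter. Sca-1+ library 19 stood apart with a summed neutrophil level of 755 CPM (8.25 to 56.3 CPM in the other Sca-1+ libraries), and Sca-1- library 10 with the highest megakaryocyte sum and the lowest Cdh5. The part of these other cell types in the connexin results was not tested. In bulk libraries, fewer cells of a type and less RNA per cell cannot be told apart.

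Connexins are membrane proteins that assemble into hexameric channels, and channels of neighbouring cells dock through their extracellular loops to form gap junctions, which let ions and small metabolites pass between the cells. In the vessel wall they couple endothelial cells to each other and to smooth muscle, and they carry the electrical signals that spread vasodilation along arterioles. Gja4 and Gja5 are known as connexins of arterial endothelium, Gja1 is broadly expressed and is also the main connexin of osteoblasts and stromal cells, and Gjc1 is best known from smooth muscle and the developing heart.

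Docking depends on cysteines of the extracellular loops, and these are kept in all 4 members. The bases that code for the cysteine motif of the first loop are shown because they are the stretch the members share most plainly, and because similar genes can share reads. They were read from GENCODE M21 transcripts (GRCm38), each 36 bases long, 5′ to 3′ on the coding strand, with the 3 cysteine codons in capitals.
Gja1 (chr10:56387706-56387741, plus strand): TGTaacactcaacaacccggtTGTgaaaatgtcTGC
Gja4 (chr4:127312774-127312809, minus strand): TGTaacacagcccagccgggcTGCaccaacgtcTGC
Gja5 (chr3:97050788-97050823, plus strand): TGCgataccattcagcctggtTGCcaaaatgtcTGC
Gjc1 (chr11:102800984-102801019, minus strand): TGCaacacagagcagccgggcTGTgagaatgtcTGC
Across this stretch, pairs of members were identical at 23 to 28 of 36 bases. Over the whole coding sequences, the longest run of identical bases shared by any pair was 26 bases (Gja1 and Gja4), and no pair shared a run of 50 bases. The coding sequences hold 382 codons in Gja1, 333 in Gja4, 358 in Gja5 and 396 in Gjc1.

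All 4 members were higher in Sca-1+ ECs by edgeR's quasi-likelihood test, and in each of them every Sca-1+ library lay above every Sca-1- library. Over all 15937 genes tested, 23.3% were higher in Sca-1+ ECs at an edgeR adjusted p below 0.05 and 24.8% were higher without overlap, with a median log2 fold change of 0.07 over all genes against 4.31 over the 4 members. Of all calls 52.1% were higher in Sca-1+ ECs, and 63.1% with library size as the only scaling. The members differed widely in the size of the difference, in the order Gja5, Gja4, Gjc1 and Gja1. The directions of Gja1 and Gjc1 held in every scaling of the libraries except that to general endothelial genes, in which both turned negative.

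Gja5 (ENSMUSG00000057123, chromosome 3 from 96904693 to 97077416, plus strand), the connexin most closely tied to arterial endothelium, showed the widest separation. Its level was 96.5, 31.8, 47.2 and 40.1 CPM in the Sca-1+ libraries 7, 13, 15 and 19. In the Sca-1- libraries 8, 10, 14, 16 and 22 it was 0.601, 0.0698, 0.424, 0.365 and 0.244 CPM, which were 10, 1, 10, 11 and 6 counts. Gja5 was therefore near the limit of detection in every Sca-1- library, where 3 counts correspond to 0.0996 to 0.209 CPM, and under that limit in library 10. The lowest Sca-1+ library was 53.0-fold above the highest Sca-1- library. The means were 53.9 ± 29.1 CPM (SD, n = 4) and 0.341 ± 0.199 CPM (SD, n = 5). The fitted log2 fold change was 7.27 ± 0.54 (SE; edgeR adjusted p = 1.8e-05). Only 0.703% of the genes tested had a larger log2 fold change. Within Sca-1+ ECs, library 7 was 3.03-fold above library 13, the widest range of any member in that fraction. The library kit does not mark strand, and 165 exonic bases of Gja5 overlap Gpr89 on the opposite strand, so reads there cannot be assigned to either gene. Gpr89 was counted at 310 to 607 in the Sca-1+ libraries and at 168 to 851 in the Sca-1- libraries, which overlap.

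Gja4 (ENSMUSG00000050234, chromosome 4 from 127311421 to 127314039, minus strand), the other arterial endothelial connexin, was high and even in Sca-1+ ECs. Its level was 253, 199, 224 and 178 CPM in libraries 7, 13, 15 and 19, and 9.67, 1.26, 2.88, 9.36 and 13.4 CPM in libraries 8, 10, 14, 16 and 22. It was thus detected in every Sca-1- library, lowest in 10 and 14, and the lowest Sca-1+ library was 13.3-fold above the highest of them. The means were 214 ± 32.1 CPM (SD, n = 4) and 7.31 ± 5.08 CPM (SD, n = 5), and the fitted log2 fold change was 4.86 ± 0.61 (SE; edgeR adjusted p = 1.8e-04). The range was 1.42-fold across Sca-1+ libraries, the narrowest of the 4 members, and 10.7-fold across Sca-1- libraries, the widest.

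Gjc1 (ENSMUSG00000034520, chromosome 11 from 102799579 to 102819700, minus strand) lay between the arterial connexins and Gja1 in the size of its difference. It was found at 51.5, 33.4, 26.5 and 55.2 CPM in libraries 7, 13, 15 and 19, and at 3.004, 1.47, 2.46, 3.72 and 4.72 CPM in libraries 8, 10, 14, 16 and 22. Every library held at least 21 counts, so Gjc1 was above the limit of detection in both fractions. The means were 41.7 ± 13.9 CPM (SD, n = 4) and 3.07 ± 1.24 CPM (SD, n = 5). The fitted log2 fold change was 3.75 ± 0.38 (SE; edgeR adjusted p = 5.8e-05).

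Gja1 (ENSMUSG00000050953, chromosome 10 from 56377330 to 56402513, plus strand) was the member with the smallest difference. It lay at 641, 463, 829 and 737 CPM in libraries 7, 13, 15 and 19, and at 375, 109, 58.0, 247 and 208 CPM in libraries 8, 10, 14, 16 and 22. The fractions did not overlap, but the lowest Sca-1+ library, 13, was only 1.23-fold above the highest Sca-1- library, 8. The means were 667 ± 156 CPM (SD, n = 4) and 199 ± 124 CPM (SD, n = 5). The fitted log2 fold change was 1.74 ± 0.47 (SE; edgeR adjusted p = 0.013). Larger log2 fold changes were found in 17.0% of the genes tested. The call was lost in 3 alternatives that used fewer libraries. Without Sca-1+ 19 and Sca-1- 10, the libraries named above as standing apart, the log2 fold change was 1.47 (adjusted p = 0.068).

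**Figure D1:**
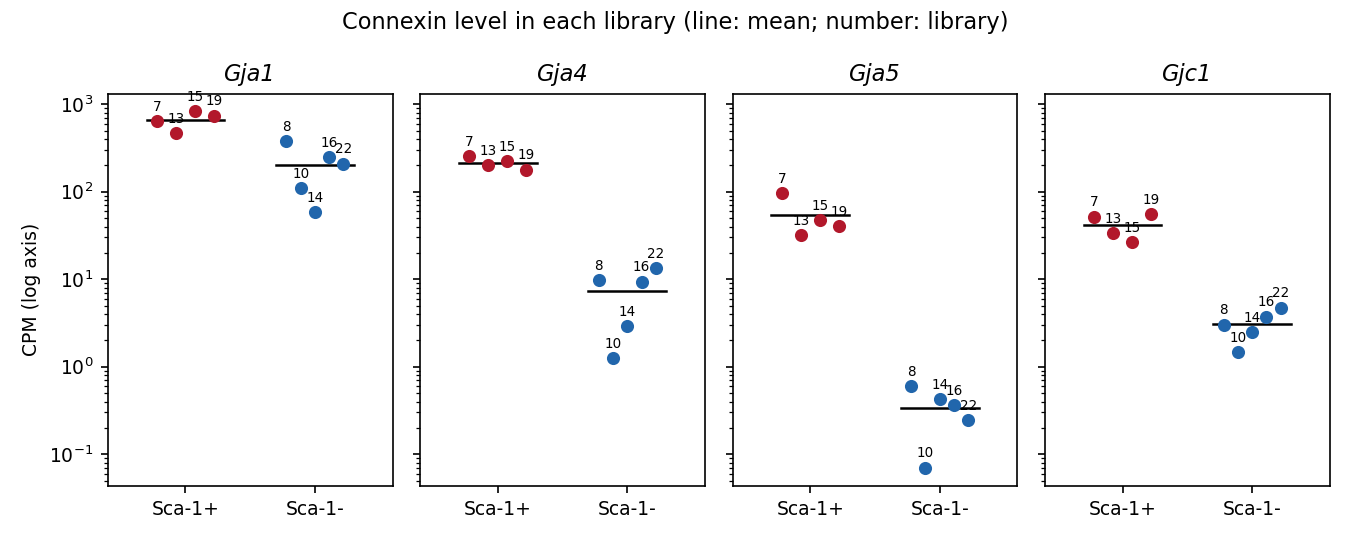
CPM of each member in each library on a log axis, with Sca-1+ libraries in red, Sca-1- libraries in blue, the library's label number beside each point and a line at the mean of each fraction. The fractions do not overlap in any of the 4 genes, and the gap is narrowest for Gja1 (463 against 375 CPM) and widest for Gja5 (31.8 against 0.601 CPM). When libraries are scaled to general endothelial genes, Gja1 is lower in Sca-1+ ECs (log2 fold change -2.73, adjusted p = 7.9e-04 from edgeR's test). Gjc1 turns negative in that scaling but does not pass the test (-0.59, adjusted p = 0.18).

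The Sca-1- libraries differed 6.47-fold among themselves in Gja1, and the order of these libraries was 8, 16, 22, 10 and 14. The same order was found for 5 of the 14 stromal genes (Col1a1, Col3a1, Dcn, Lum and Bglap) for 1 of the 12 smooth muscle genes (Des), and for 0 of the 25 general endothelial and 0 of the 16 megakaryocyte genes. Over all genes tested, 1.66% had this order. These are descriptions of 5 libraries and were picked out after their values were seen. Col1a1 lay at 27568, 12953, 11841, 6412 and 2028 CPM in libraries 8, 16, 22, 10 and 14, and Bglap at 704, 347, 135, 91.3 and 21.5 CPM. Gja1 ran at 13.6 to 28.6 CPM for each 1000 CPM of Col1a1 in this fraction. For each 1000 CPM of Col1a2 it ran at 28.7 to 62.6 CPM, and of Bglap at a wider 533 to 2694 CPM. In the Sca-1+ libraries 7, 13, 15 and 19, by contrast, Col1a1 was at 181, 27.4, 63.8 and 389 CPM, all far below the Sca-1- libraries, while Gja1 was higher. Whether stromal RNA had a part in the Gja1 level of the Sca-1- libraries was not tested. The Sca-1- order of Gja4 was 22, 8, 16, 14 and 10, which was shared with Egfl7, Cd34, Dll4 and Flt4 among the endothelial lists and with 0 stromal genes. Gjc1 shared its order with Sox18, S1pr1 and Ephb4, also from the endothelial lists, and with 0 stromal genes. Gja5, at 1 to 11 counts, shared its order with Ramp2 and Fbln5 of the endothelial lists and with the stromal gene Kitl. The orders of Gja4, Gja5 and Gjc1 were found in 0.634%, 0.326% and 0.929% of all genes tested.

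**Figure D2:**
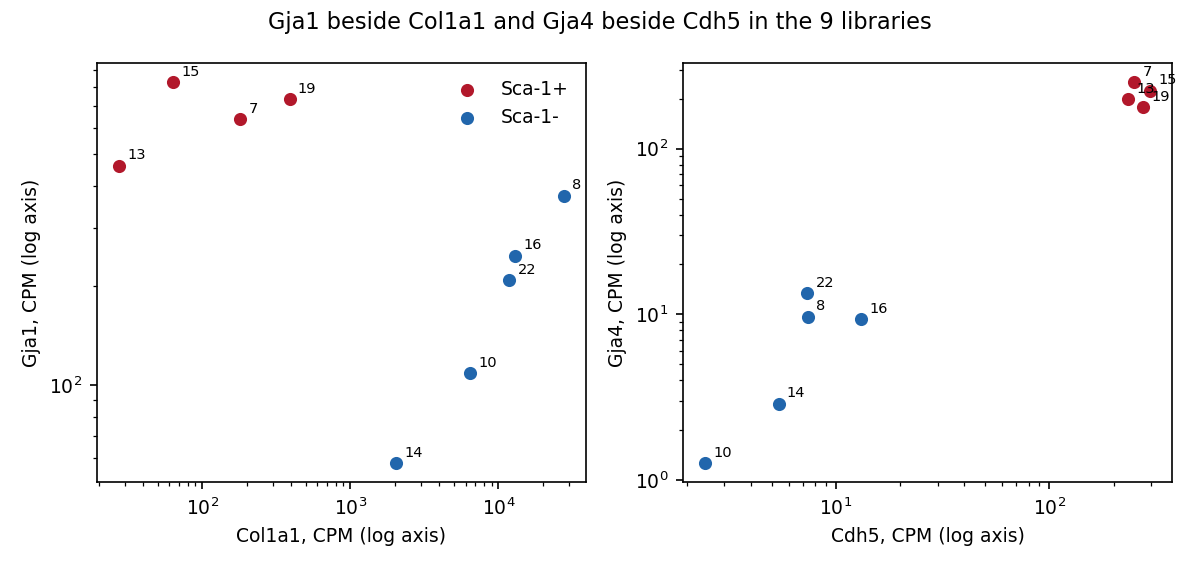
Left, Gja1 against Col1a1 and right, Gja4 against Cdh5, in CPM on log axes, with 1 point per library (red, Sca-1+; blue, Sca-1-) and its label number. Among the Sca-1- libraries Gja1 and Col1a1 run in the same order, from library 14 (58.0 and 2028 CPM) to library 8 (375 and 27568 CPM). The Sca-1+ libraries have the higher Gja1 at 27.4 to 389 CPM of Col1a1, and they form a tight group at high Cdh5 and Gja4.

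Levels of different genes were compared as CPM per kilobase of the longest coding transcript. In Sca-1+ ECs Gja1 (210 ± 49.1 CPM per kilobase, SD, n = 4) ranked above Gja4 (126.8 ± 19.04), and Gja1 was the higher of the pair in 4 of 4 libraries, although their ranges overlapped. Gjc1 (18.0 ± 6.01) and Gja5 (14.7 ± 7.92) followed at much lower levels and could not be ordered, since each was the higher in 2 of 4 libraries. In Sca-1- ECs the order was Gja1 (62.7 ± 38.9 CPM per kilobase, SD, n = 5), Gja4 (4.34 ± 3.01), Gjc1 (1.33 ± 0.534) and Gja5 (0.0929 ± 0.0542). Each gene was above the next in 5 of 5 libraries there, and only the ranges of Gja4 and Gjc1 overlapped. The order of the upper pair in Sca-1+ ECs depended on the length used. With the union of all annotated exons, which for Gja1 includes retained introns, Gja4 (126.8 ± 19.04 CPM per kilobase) was above Gja1 (65.0 ± 15.2) in 4 of 4 libraries.

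The make-up of the connexin transcripts differed between the fractions. On the per kilobase scale of the longest coding transcript, Gja1 made up 50.3%, 50.6%, 62.3% and 62.0% of all connexin transcripts in Sca-1+ libraries 7, 13, 15 and 19. It made up 92.2%, 93.7%, 74.4%, 90.9% and 85.1% in Sca-1- libraries 8, 10, 14, 16 and 22. Gja4 made up 28.4% to 41.1% in Sca-1+ ECs and 2.04% to 10.3% in Sca-1- ECs. The shares of Gja5 were 2.93% to 6.57% and 0.0521% to 0.473%, and those of Gjc1 2.73% to 6.39% and 1.02% to 4.35%. Only the shares of Gjc1 overlapped between the fractions. With the union of exons as length, Gja4 was the largest component in Sca-1+ ECs (53.8% to 67.1%), Gja1 made up 25.6% to 36.5% there, and in Sca-1- ECs Gja1 made up 50.2% to 84.9% and Gja4 5.96% to 25.99%. All other connexins together made up at most 0.277% in any Sca-1+ library. They reached 13.8% in Sca-1- library 14, where the summed connexin level was the lowest (24.5 CPM per kilobase), and lay between 0.604% and 2.48% in the other Sca-1- libraries.

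**Figure D3:**
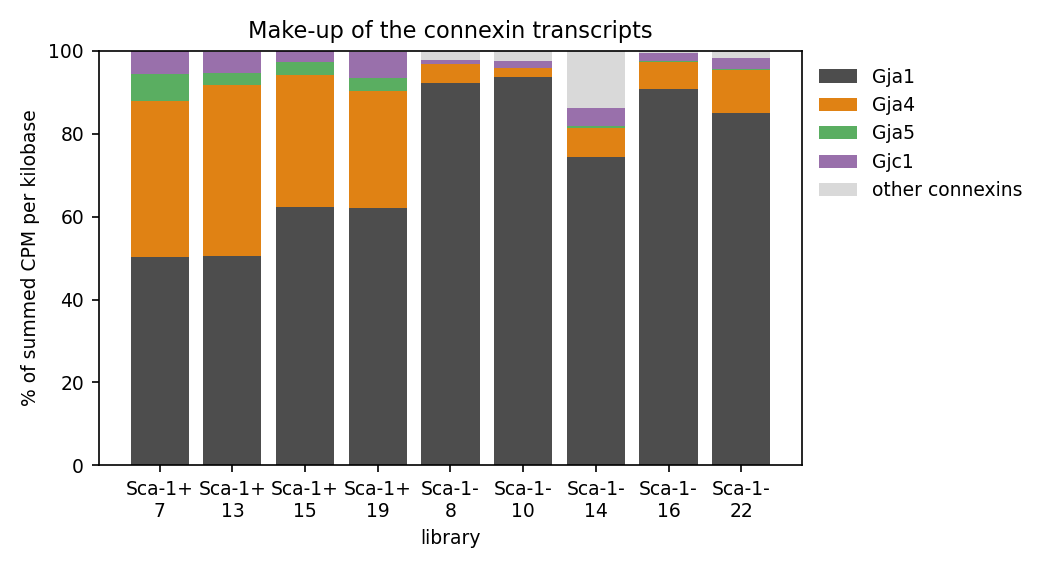
Share of each member in the summed level (CPM per kilobase of the longest coding transcript) of all 20 connexins, as 1 stacked bar per library. Gja1 takes 50.3% to 62.3% in the 4 Sca-1+ libraries and 74.4% to 93.7% in the 5 Sca-1- libraries, and Gja4 is the second component in all libraries but Sca-1- 10 and 14, in which the other connexins exceed it. With the union of exons as length Gja4 would be first in the Sca-1+ libraries, at 53.8% to 67.1%.

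The differences in make-up were tested as log2 ratios between members (differences of log2 CPM with a prior count of 2) by exact two-sided permutation of the fraction labels. Library scaling cancels in such a ratio except through the prior count, which pulls in the ratios of Gja5 in Sca-1- ECs. There were 6 pairs, and the smallest p the design allows is 0.0079. The log2 ratio of Gja1 to Gja4 was 1.62 ± 0.41 (SD, n = 4) in Sca-1+ ECs and 4.91 ± 0.94 (SD, n = 5) in Sca-1- ECs, a difference of -3.29 (exact p = 0.0079). That of Gja1 to Gja5 was 3.73 ± 0.68 and 8.78 ± 1.09 (difference -5.05, exact p = 0.0079). Relative to Gja1, both arterial connexins thus stood higher in Sca-1+ ECs, without overlap between the libraries. That of Gja5 to Gjc1 was 0.30 ± 0.67 and -2.97 ± 0.71 (difference 3.27, exact p = 0.0079), again without overlap. The remaining 3 pairs differed less. For Gja1 and Gjc1 the difference was -1.78 (exact p = 0.032), for Gja4 and Gja5 it was -1.76 (exact p = 0.032), and for Gja4 and Gjc1 it was 1.51 (exact p = 0.016). With a prior count of 0.5 the differences of the 3 pairs with Gja5 were wider, at -5.36 for Gja1 and Gja5, -2.05 for Gja4 and Gja5 and 3.55 for Gja5 and Gjc1. Each of the 3 pairs with the smaller differences lost p under 0.05 when certain single libraries were left out. The first was lost without Sca-1+ 7, 13 or 19 or Sca-1- 8, 10, 16 or 22 (difference -1.87 to -1.50). The next was lost without Sca-1+ 7, 15 or 19 or Sca-1- 8, 10, 16 or 22 (-1.94 to -1.38), and the last without Sca-1+ 7, 13 or 15 (1.29 to 1.55).

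Because the Sca-1- libraries held far less endothelial RNA, each member was also set against the 25 general endothelial genes of the same library, as log2 CPM minus their mean log2 CPM. This reference was 8.86 to 9.07 in the Sca-1+ libraries and 3.47 to 5.09 in the Sca-1- libraries. On this scale the 4 members parted. Gja5 remained higher in Sca-1+ ECs, at -3.35 ± 0.60 (SD, n = 4) against -5.95 ± 0.66 (SD, n = 5), without overlap (difference 2.60, exact two-sided permutation test, p = 0.0079). Gja1 was lower in Sca-1+ ECs, at 0.38 ± 0.31 against 2.83 ± 1.10, also without overlap (difference -2.45, exact p = 0.016). Gja4 was at -1.25 ± 0.14 and -2.08 ± 0.95, with Sca-1- libraries 8 and 22 within the range of Sca-1+ ECs (difference 0.84, exact p = 0.17). Gjc1 was at -3.65 ± 0.53 and -2.98 ± 0.24, with overlap (difference -0.68, exact p = 0.032). The p of Gjc1 rose over 0.05 without Sca-1+ 13 or 15 or Sca-1- 8, 10, 16 or 22. Against Cdh5 alone, the difference of Gja4 was -0.11 (exact p = 0.82), while Gja1, Gja5 and Gjc1 kept their direction (exact p = 0.0079 each). The same directions came from edgeR's test with libraries scaled to these genes, which rests on the same libraries and reference and is no separate support. The median log2 fold change of all genes was then -4.45, and 1.29% of genes were higher and 89.0% lower in Sca-1+ ECs. Gja5 was 1 of the higher genes (log2 fold change 2.90, edgeR's adjusted p = 5.5e-04) and Gja1 was 1 of the lower (-2.73, adjusted p = 7.9e-04). Gja4 (0.62, adjusted p = 0.21) and Gjc1 (-0.59, adjusted p = 0.18) did not pass. Pecam1 and Esam belong to the reference although neither passed the test with TMM scaling.

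**Figure D4:**
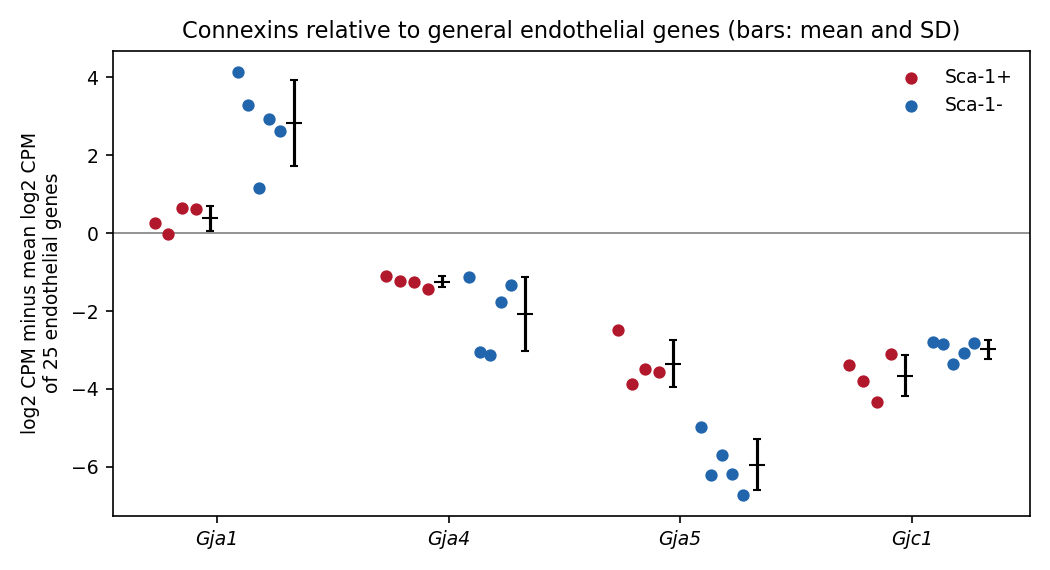
Log2 CPM of each member minus the mean log2 CPM of 25 general endothelial genes in the same library, with 1 point per library (red, Sca-1+; blue, Sca-1-) and bars for the mean and SD of each fraction. Gja5 lies higher in Sca-1+ ECs and Gja1 lower, both without overlap, while Gja4 and Gjc1 overlap between the fractions.

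The other connexins were close to absent. Of the 16 others in the table, 7 had 0 counts in all 9 libraries and the rest stayed under 2 CPM in every library, so only Gjb2 and Gjd3 passed the filter on low counts. Gjb2 (Cx26) did not differ detectably (0.682 ± 0.378 against 0.537 ± 0.798 CPM, log2 fold change 0.34 ± 1.35 (SE), edgeR adjusted p = 0.86). Gjd3 had 27, 4, 43, 13 and 10 counts in Sca-1- libraries 8, 10, 14, 16 and 22 and 1 count in all Sca-1+ libraries together. It passed the filter through its Sca-1- counts alone, so the filter set the direction of its call (lower in Sca-1+ ECs, adjusted p = 0.0015 from edgeR's test). Its fitted log2 fold change of -6.06 rests on the single Sca-1+ count and depends on the prior count, so it gives no size of the difference. Gjb1 was the reverse, with 0, 20, 7 and 22 counts in Sca-1+ libraries 7, 13, 15 and 19 and 0 in every Sca-1- library, and did not pass the filter. With no filter, 1 of the other connexins and pannexins was called higher and 2 lower, of 12 tested. Of the 3 pannexins, which form related channels that do not make gap junctions, Panx1 had the most counts in every library. It lay at 8.44 to 17.0 CPM in Sca-1+ libraries and 61.1 to 419 CPM in Sca-1- libraries, opposite to the vascular connexins and without overlap, with a log2 fold change of -4.06 ± 0.60 (SE; edgeR adjusted p = 4.4e-04). Over all genes tested, 21.4% were lower in Sca-1+ ECs. The summed level of megakaryocyte genes given above moved with the fraction as Panx1 did, and its part in the Panx1 level was not tested. Panx3, known from osteoblasts and cartilage, ranged from 0 to 39.2 CPM in Sca-1- libraries, highest in library 8, and from 0.345 to 5.42 CPM in Sca-1+ libraries (a difference of -2.33 ± 1.67 on the log2 scale, edgeR adjusted p = 0.28). Panx2 had 6 counts in all.

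All 21 listed genes whose proteins bind, modify or remove connexins passed the filter. At the RNA level 6 were higher and 7 lower in Sca-1+ ECs, with a median log2 fold change of 0.26. These shares (28.6% and 33.3%) stood beside 23.3% and 21.4% over all genes. Scaled to general endothelial genes, 0 were higher and 18 lower, beside 1.29% and 89.0% over all genes. The largest increases were in Cav1 (caveolin, 2324 ± 913 against 134 ± 68.6 CPM, log2 fold change 4.12), Tjp1 (ZO-1, the scaffold at the edge of gap junction plaques, 80.9 ± 8.49 against 5.47 ± 2.87 CPM, 3.88) and Dbn1 (drebrin, 64.9 ± 27.8 against 4.88 ± 3.67 CPM, 3.73). All 3 turned slightly negative when libraries were scaled to general endothelial genes. The largest decreases were in kinases that phosphorylate Cx43 and in a factor of connexin delivery to the membrane. Src was at 0.230 ± 0.170 CPM in Sca-1+ ECs and 28.5 ± 19.2 CPM in Sca-1- ECs (log2 fold change -6.92), Prkca at 4.75 ± 0.818 and 492 ± 293 CPM (-6.69), and Cnst (consortin) at 29.6 ± 10.3 and 903 ± 808 CPM (-4.93). Adjusted p-values of the 6 largest differences were 2.3e-05 to 4.6e-04. The level of megakaryocyte genes given above moved with the fraction as these decreases did, and its part in them was not tested.

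The list called arterial and shear regulators here holds arterial identity and shear responsive genes, and also a venous factor, cardiac factors and a cell cycle inhibitor. Its name does not mean that each gene governs a connexin in arteries. The listed genes were mostly higher in Sca-1+ ECs with TMM scaling, while few were called higher when scaled to general endothelial genes. Of 27 genes 24 passed the filter, of which 20 were higher, 1 was lower and 3 did not differ detectably. These shares (83.3% and 4.17%) stood beside 23.3% and 21.4% over all genes, and the median log2 fold change was 3.51 beside 0.07. Scaled to general endothelial genes, 2 were higher, 11 were lower and 11 did not pass. The shares were then 8.33% and 45.8% beside 1.29% and 89.0% over all genes, with a median of -0.78 beside -4.45. Sox18 and Eng of this list are among the genes that set that scaling. The largest differences were in Sox17, an arterial transcription factor (292 ± 28.1 against 1.06 ± 1.17 CPM, log2 fold change 8.06, standard error 0.91), Tbx3 (11.9 ± 8.25 against 0.157 ± 0.316 CPM, 6.31, standard error 1.21) and Notch4 (72.7 ± 29.9 against 1.25 ± 0.916 CPM, 5.88, standard error 0.55). Tbx3 rests on 14 counts in Sca-1- ECs, with 3 libraries at 0, and its log2 fold change was 8.80 without Sca-1- 8 and 5.70 without Sca-1+ 19. That of Sox17 was 9.03 without Sca-1- 16. In the endothelial scaling Tbx3 (1.81, adjusted p = 0.19) and Notch4 (0.97, adjusted p = 0.24) did not pass edgeR's test. The smallest among those that passed were in the BMP effectors Smad1 (248 ± 41.4 against 99.3 ± 19.1 CPM, 1.32) and Smad5 (43.0 ± 7.17 against 16.6 ± 5.38 CPM, 1.37), both negative in the endothelial scaling. The cell cycle inhibitor Cdkn1b was the only gene of the list that was lower (5.07 ± 0.682 against 28.7 ± 25.4 CPM, -2.50), a call lost with limma voom (-1.83, adjusted p = 0.059), with the 6-library replicate block (-1.94, adjusted p = 0.080) and without Sca-1+ 19 and Sca-1- 10 (-2.01, adjusted p = 0.061). Adjusted p-values of these 6 were 1.1e-04 to 0.012 in edgeR's test, apart from Notch4 at 4.2e-05. The venous factor Nr2f2 (log2 fold change 2.54, adjusted p = 6.7e-04) rose as well, so the list did not separate arterial from other endothelial genes. Gata4 and Nkx2-5, cardiac factors that act on Gja5 in the heart, had 0 counts in all libraries, and Tbx5 did not pass the filter.

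The upstream sequences of the members are shown because Gja4, Gja5 and most of the listed regulators were higher in the same fraction. RefSeq (GRCm38.p6) gives 250 bases before the start of 3 of the 4 genes, printed 5′ to 3′ on the gene's strand. Gjc1 was not among them, and the RefSeq start of Gja5 lies inside the GENCODE gene. Capitals mark matches, on either strand, to the 7 motifs searched. The SOX core was ACAAT and the RBPJ motif was TGGGAA. The KLF box was CCACCC and the T-box motif was GGTGTG. For GATA factors the letters were AGATAA, for AP-1 they were TGANTCA, and the GC box was GGGCGG.
Gja1 (chr10:56377050-56377299, plus strand): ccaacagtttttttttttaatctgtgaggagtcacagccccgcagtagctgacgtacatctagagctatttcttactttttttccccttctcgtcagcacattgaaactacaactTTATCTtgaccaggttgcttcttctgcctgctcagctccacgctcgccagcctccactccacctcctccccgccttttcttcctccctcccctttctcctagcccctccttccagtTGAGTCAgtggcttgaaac
Gja4 (chr4:127314040-127314289, minus strand): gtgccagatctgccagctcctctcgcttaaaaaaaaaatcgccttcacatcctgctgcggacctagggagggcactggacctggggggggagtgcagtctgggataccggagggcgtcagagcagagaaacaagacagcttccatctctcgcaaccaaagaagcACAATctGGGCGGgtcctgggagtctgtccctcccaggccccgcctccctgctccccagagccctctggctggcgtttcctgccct
Gja5 (chr3:97032152-97032401, plus strand): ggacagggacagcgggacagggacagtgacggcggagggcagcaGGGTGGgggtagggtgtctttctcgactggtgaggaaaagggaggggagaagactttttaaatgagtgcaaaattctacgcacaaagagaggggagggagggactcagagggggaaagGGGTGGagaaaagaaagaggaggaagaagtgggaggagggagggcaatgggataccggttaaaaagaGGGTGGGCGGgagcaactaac
Gja1 held 1 AP-1 match, which starts 19 bases before the gene's start and reads on both strands, and 1 GATA match. Gja4 held 1 SOX core match, starting 86 bases before the start, and 1 GC box. Gja5 held 3 KLF box matches, the nearest of which overlaps its single GC box. Over the 32851 upstream windows of the table, 6.75% held the AP-1 motif, 9.99% GATA, 27.7% the SOX core, 28.1% the KLF box and 32.7% the GC box, so such matches are common. No RBPJ or T-box match was found in the 3 windows (21.6% and 16.3% of all windows hold them), which says only that these letters do not occur there. Factors of these families were measured in the same libraries. Jun, an AP-1 subunit, was at 1291 and 331 CPM on average in Sca-1+ and Sca-1- ECs (log2 fold change 1.96, adjusted p = 0.0018 from edgeR's test), and Klf2, the shear responsive factor, at 605 and 85.0 CPM (2.83, adjusted p = 1.1e-04). Sp1, a GC box factor of the same list, did not differ detectably (13.8 and 14.5 CPM, -0.07, edgeR adjusted p = 0.89). These values are given with TMM scaling only. The members and these factors are set side by side, and no binding was measured.

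The genes of conducted vasodilation act with the connexins, as the channels and calcium release that start a hyperpolarization and the enzyme that makes nitric oxide. Of 12 genes 11 passed the filter, with 6 higher and 2 lower in Sca-1+ ECs. These shares (54.5% and 18.2%) stood beside 23.3% and 21.4% over all genes, and the median log2 fold change was 1.79 beside 0.07. With the endothelial scaling 0 were higher and 8 (72.7%) lower, beside 1.29% and 89.0% over all genes. The median was then -2.55 beside -4.45. With TMM scaling Nos3, the endothelial nitric oxide synthase, had the largest difference (141 ± 23.2 against 3.58 ± 3.05 CPM, log2 fold change 5.28 ± 0.73 (SE), edgeR adjusted p = 3.2e-04). It was followed by the calcium channel Trpv4 (58.3 ± 22.2 against 5.76 ± 5.08 CPM, 3.34) and the calcium release channel Itpr3 (8.41 ± 1.84 against 0.839 ± 0.816 CPM, 3.30), which both turned negative in the endothelial scaling. In the endothelial scaling Nos3 did not pass edgeR's test (1.11, adjusted p = 0.079). Nos3 is itself among the general endothelial genes that set this scaling, so that fit is no independent test of it. Itpr3 did not pass without Sca-1+ 19 and Sca-1- 10 (adjusted p = 0.056) or in the 6 libraries with consecutive label numbers, with or without the replicate block (adjusted p = 0.16 and 0.11). The other isoform Itpr2 was lower in Sca-1+ ECs (23.2 ± 7.10 against 161 ± 117 CPM, -2.80), as was the potassium channel Kcnn4 (15.4 ± 3.97 against 50.6 ± 27.9 CPM, -1.71). The call of Kcnn4 was lost with library size as the only scaling (-1.48, adjusted p = 0.056) and with the replicate block (-1.49, adjusted p = 0.052). Kcnn3, the other endothelial calcium-activated potassium channel, did not pass the filter. Adjusted p-values of Trpv4, Itpr3, Itpr2 and Kcnn4 lay between 0.0019 and 0.011.

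**Figure D5:**
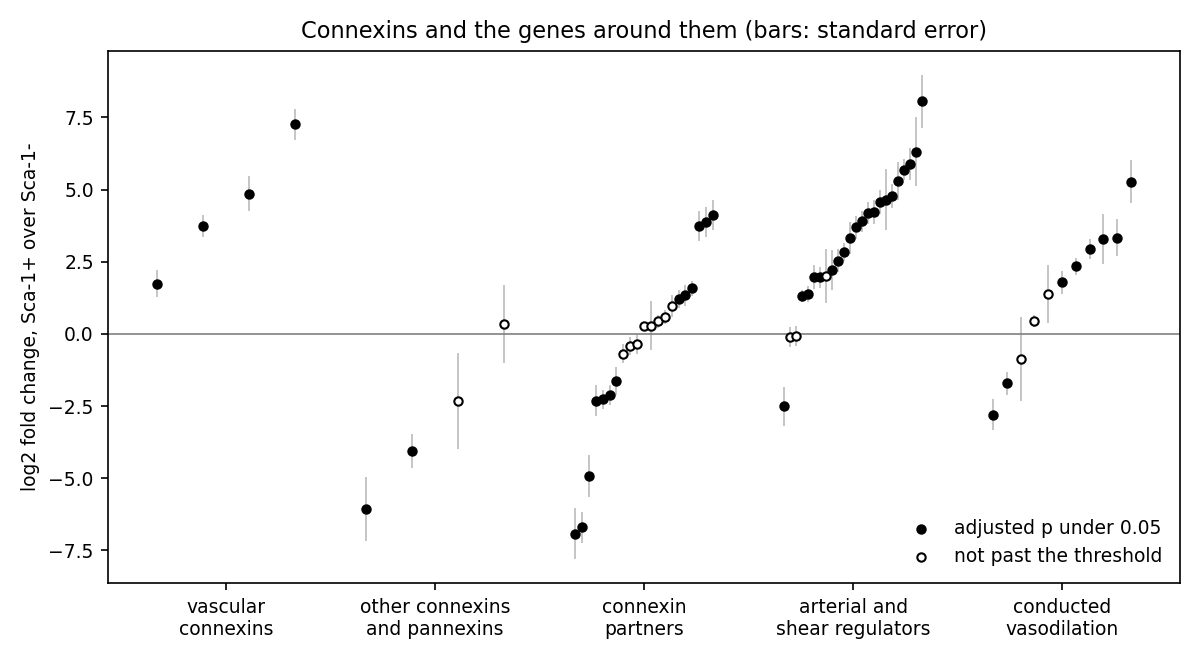
Log2 fold change of Sca-1+ over Sca-1- ECs with its standard error for every tested gene of 5 groups, sorted within each group, with filled points where edgeR's adjusted p was below 0.05. The 4 vascular connexins (1.74 to 7.27) and 20 of 24 arterial and shear regulators lie above 0 and past the threshold, Panx1 and Gjd3 lie below 0 and past it, and the connexin partners spread from -6.92 to 4.12. Scaled to general endothelial genes, Gja1 and Gjc1 and most of the regulators lie below 0.

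The profiles most like each member across the 9 libraries were found among all genes tested, as the smallest root mean square difference of log2 CPM after each gene's mean was removed. The nearest to Gja1 were Dnmbp, Vezt and Phldb1 (differences of 0.28 to 0.29 log2 units). The nearest to Gja4 were Gm14207, Fgd5 and Sh3tc1 (0.34 to 0.39), of which Fgd5 is known from endothelial cells. The nearest to Gja5 were Epas1, which encodes the hypoxia factor HIF-2 alpha, Gm9934 and Sez6, at larger distances of 0.54 to 0.72. Gjc1 had the closest neighbour of all, Tcf7l1 (0.21), a transcription factor of the Wnt pathway, followed by Cxx1a and RP23-338P12.3 (0.29 and 0.32). The 12 genes were all different, so no gene was among the 3 nearest of more than 1 member.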

How the data were processed

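RNA-seq was measured in 9 libraries of sorted BM ECs, grouped by the sorted fraction in the labels. The authors made libraries with a low input kit that primes on poly(A) tails, adds no molecular identifiers and does not mark strand. The authors deposited a single table of raw gene counts in whole numbers, not normalized. The submitters' processing notes name STAR, featureCounts and mm10, and versions and counting settings are not given in the sources used here.

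The members and gene lists were chosen with earlier results of these data known. Genes named from the partner, regulator and vasodilation lists are, by rule, the 3 highest and 3 lowest signed log2 fold changes with an adjusted p under 0.05, and 1 of the genes this rule names is not reported here. Cdh5 and Cxcl12 were set as defining markers. Others were named after their values were seen. These were Nr2f2, Jun, Klf2, Sp1, Eng, Kcnn3, Gata4, Nkx2-5, Tbx5, Lyve1, Esam, Col1a2 and Des. The stromal and endothelial genes that share a member's library order were also named in this way.

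Counts were tested in R 4.3.3 with edgeR 4.0.16 (filterByExpr at min.count 10 and min.total.count 15, TMM, quasi-likelihood F-test, two-sided, Benjamini-Hochberg adjustment over 15937 genes, threshold 0.05). The biological coefficient of variation was 0.549. For log2 CPM the prior count was 2. Any library at 3 counts or fewer was taken as at the floor, which covers counting error only. Single values were compared with exact permutation tests. Of the deposited identifiers 45229 of 46078 were found in GENCODE M21 (GRCm38), which gave coordinates and lengths. The edgeR step was tested on simulated data. No 2 libraries of a fraction were copies. Alternatives used other scalings, filters, tests (DESeq2 1.42.0, limma 3.58.1 voom) and libraries. Plots were drawn with matplotlib 3.10.9.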

Additional observations from a re-analysis of the deposited data

Results flagged for a closer look

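In 44 sets of values over the libraries of a fraction, 4 held a library that stood apart from the others by Dixon's test, where chance gives about 1 in 20. The log2 ratio of Gja1 to Gja5 was 6.84 in Sca-1- library 14, while the next lowest Sca-1- library was at 9.10. The log2 ratio of Gja1 to Gjc1 was 4.96 in Sca-1+ library 15, while the next highest was at 3.79. Gja5 made up 6.57% of the connexin level per kilobase in Sca-1+ library 7 against 3.08% in the next highest, and 0.473% in Sca-1- library 14 against 0.128% in the next highest, which rests on 10 counts.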

How the results depend on the processing

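Gja4, Gja5 and Gjc1 kept their direction and passed the threshold in 20 of 20 alternatives other than endothelial scaling, and Gja1 in 17 of 20. Scaling to general endothelial genes shifted the median of all genes by -4.52. Genes called were then 14382 (7137 with TMM), with 205 higher and 14177 lower in Sca-1+ ECs, other connexins and pannexins called were 4 in place of 2, and regulators called were 13 (2 higher, 11 lower) in place of 21 (20 higher, 1 lower). Log2 fold changes became -2.73 for Gja1, 0.62 for Gja4, -0.59 for Gjc1, -0.16 for Cav1, -0.62 for Tjp1, -0.75 for Dbn1, -3.22 for Smad1, -3.20 for Smad5, -1.09 for Trpv4 and -1.08 for Itpr3. Library size only shifted the median by 0.36 and made 63.1% of calls higher in Sca-1+ ECs in place of 52.1%. Against Cdh5 alone, the relative difference of Gja4 was -0.11. The cause of these changes was not tested.

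Consecutive label numbers (7 and 8, 13 and 14, 15 and 16) gave correlations of deviations of 0.147, 0.148 and 0.042, with all other pairs between -0.191 and 0.065. The values of 7 and 8 and of 13 and 14 thus lay above all other pairs, and that of 15 and 16 within their range. The labels do not say that the numbers mark pairs, so the main fit did not use them as such. Whether the 6 libraries are pairs cannot be told from these values. These 6 libraries gave 4090 genes with the replicate block, and Gja1 was at 1.79 (adjusted p = 0.061) with the block and at 1.503 (adjusted p = 0.11) without it. Without Sca-1+ 19 and Sca-1- 10, chosen after seeing the data, Gja1 was at 1.47.

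With 1 library left out, other connexins and pannexins called were 1 to 2, since Gjd3 fell under the filter without Sca-1- 8, 14, 16 or 22. Differences in log2 ratio ranged from -2.10 to -1.497 for Gja1 and Gjc1, -2.08 to -1.38 for Gja4 and Gja5 and 1.24 to 1.75 for Gja4 and Gjc1, and the relative difference of Gjc1 from -0.86 to -0.45. Fewer libraries raise the smallest p the exact test can give, to between 0.018 and 0.029.

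Depth limits Gja5 in Sca-1- ECs, which rests on 1 to 11 counts a library.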
